A study of Mus musculus with 2 samples.

Results

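The genes described here hold back cytokine signalling or set the lifetime of cytokine mRNA, and were followed in mouse macrophages that lacked PAC1, the phosphatase encoded by Dusp2, and in macrophages of wild-type littermates. There were 10 of them among 8220 named genes on the array: Socs1, Socs2 and Cish of the suppressor of cytokine signalling family, Tnfaip3, Tnip1 and Ier3, which are induced by NF-kB and act on its pathway or on survival, and Zfp36, Zfp36l1, Elavl1 and Hnrnpd, which encode proteins that bind AU-rich elements of mRNA. They were chosen by name, with earlier results of these data known. Every probe set annotated to them was taken, which gave 10 probe sets, 1 for each gene. No gene was missing from the array.

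Thioglycollate-elicited peritoneal macrophages of age-matched Pac1-/- mice formed the first group and those of Pac1+/+ littermates the second, and cells of both genotypes received 100 ng/ml lipopolysaccharide (LPS), the bacterial cell-wall component sensed by Toll-like receptor 4, for 6 hours. Thioglycollate, a sterile irritant that draws monocytes into the peritoneum, had been injected 4 days earlier, and the cells were purified by adherence and were 92 to 95% positive for Mac-1 per the labels. Each genotype had 1 Affymetrix array, so no difference below has a replicate check, no p-value could be given, and the number of arrays limits the precision. Unstimulated cells were not analysed here, and how many mice lie behind each array was not stated.

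As background, LPS sets off NF-kB and MAP kinase signalling and a burst of cytokine transcripts, and the same signals induce proteins that end the burst. SOCS proteins and CIS, the product of Cish, bind activated cytokine receptors or their JAK kinases and stop STAT signalling. A20, the product of Tnfaip3, edits ubiquitin chains on NF-kB signalling proteins together with its partner ABIN-1, the product of Tnip1. Tristetraprolin, the product of Zfp36, and its relative encoded by Zfp36l1 recruit deadenylases to AU-rich elements in cytokine mRNA, whereas HuR, the product of Elavl1, stabilises many of the same transcripts and AUF1, the product of Hnrnpd, can act either way.

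Sequences before or around the start site are shown for Ier3, Tnfaip3, Tnip1, Zfp36 and Cish, so that the signals can be read beside them. Their promoters held a match to a motif of LPS or cytokine signalling. Hnrnpd also had a match, and its sequence is not printed. Windows from 250 bases before to 50 bases after the start site were available from RefSeq (build GRCm38.p6) for 9 of the 10 genes, 10 windows in all, and both strands were searched. The 3 NF-kB-arm genes Ier3, Tnfaip3 and Tnip1 were those with a match to the kappaB consensus, which 8.46% of all 32851 windows held. The 150 bases before the start site follow, 5′ to 3′ on the gene's strand, with the kappaB matches in capitals. They lie at chr17:35821563-35821712 on the plus strand for Ier3, chr10:19015411-19015560 on the minus strand for Tnfaip3 (the one of its 2 windows that held a match) and chr11:54962941-54963090 on the minus strand for Tnip1, where 3 overlapping matches form a single run.
Ier3: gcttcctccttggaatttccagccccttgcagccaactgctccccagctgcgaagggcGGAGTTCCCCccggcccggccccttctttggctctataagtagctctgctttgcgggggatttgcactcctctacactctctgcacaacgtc
Tnfaip3: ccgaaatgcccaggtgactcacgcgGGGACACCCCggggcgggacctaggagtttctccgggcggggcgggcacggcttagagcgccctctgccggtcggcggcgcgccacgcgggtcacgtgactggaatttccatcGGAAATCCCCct
Tnip1: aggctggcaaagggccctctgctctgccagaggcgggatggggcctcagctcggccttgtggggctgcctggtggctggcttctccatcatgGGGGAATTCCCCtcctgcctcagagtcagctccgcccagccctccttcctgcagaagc

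Matches to other motifs were found in Zfp36 and Cish. The Zfp36 window held a serum response element match (the CArG box bound by SRF), as 1.63% of all windows did, and the 150 bases before its start site at chr7:28379229-28379378 on the minus strand are printed with that match in capitals. The Cish window held 2 matches to the STAT-binding motif TTCNNNGAA, present in 8.30% of windows, and the 30 bases around its start site at chr9:107296654-107296683 on the plus strand are printed with both matches in capitals. That motif was also matched in the windows of Tnip1 and Zfp36, and the serum response element also in that of Hnrnpd. A match is a description of letters and not a binding site.
Zfp36: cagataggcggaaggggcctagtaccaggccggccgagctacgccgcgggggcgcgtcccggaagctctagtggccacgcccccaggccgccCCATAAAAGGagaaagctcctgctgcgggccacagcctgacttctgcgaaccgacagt
Cish: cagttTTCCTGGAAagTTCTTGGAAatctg

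Signals are MAS5 intensities (arbitrary units), which combine the probes of a probe set into a single value. Their array-wide median was 38 for knockout and 35 for wild-type cells. The floor was 36.4, the median of all signals, and lower signals were raised to it before ratios were taken. Where both signals of a gene lay below the floor, no ratio was given. All 10 members had both signals above the floor. The targeted gene Dusp2 had a signal of 76.8 in knockout cells and 333.0 in wild-type cells, a log2 ratio of −2.12, and the position of its probes relative to the deletion was not stated. All 8 macrophage markers, Itgam (the gene of Mac-1), Adgre1 and Cd68 among them, were above the floor on both arrays. Their summed signal was 25877 in knockout cells and 22870 in wild-type cells, with 7 of 8 higher in knockout cells (6 of 8 with equal medians). The lower one as reported was Msr1, with 1365.5 in knockout cells and 2170.8 in wild-type cells (log2 ratio −0.67). The other probe set of Msr1 had a log2 ratio of −0.30. Of the markers of other peritoneal cells, 4 of 8 neutrophil, 2 of 3 B cell, 0 of 4 T and NK cell, 1 of 3 mast cell, 0 of 2 eosinophil, 3 of 3 dendritic cell and 4 of 6 stromal and mesothelial genes were above the floor on both arrays. The summed signals were lower in knockout cells for the neutrophil markers (883.6 in knockout cells and 960.5 in wild-type cells), the stromal and mesothelial markers (747.1 in knockout cells and 970.0 in wild-type cells), the dendritic cell markers (1053.0 in knockout cells and 1093.8 in wild-type cells) and the T and NK cell markers (68.1 in knockout cells and 98.8 in wild-type cells). They were higher in knockout cells for the mast cell markers (256.3 in knockout cells and 140.4 in wild-type cells), the eosinophil markers (102.3 in knockout cells and 16.8 in wild-type cells) and the B cell markers (235.2 in knockout cells and 200.0 in wild-type cells). These sums include signals below the floor, and some rest on 1 gene. Among neutrophil markers with 1 or both signals above the floor, 2 of 5 were higher in knockout cells (Camp and S100a9). So were 1 of 3 dendritic cell markers (Itgax) and 1 of 4 stromal and mesothelial markers (Col1a2). With equal medians these counts were 2, 0 and 0. Prg2 made up nearly all of the eosinophil sum, with 100.1 in knockout cells against 16, under the floor, in wild-type cells. The other Prg2 probe set was under the floor on both arrays, with 4.5 in knockout cells and 4.6 in wild-type cells. Of the 3 B cell markers 2 were lower. Cd79a was higher, with 100.2 in knockout cells against 20.7, under the floor, in wild-type cells. Of the T and NK cell markers only Cd4 passed the floor, on the wild-type array alone (74.5, against 32.8 in knockout cells). The ratio of 3′ to 5′ signal of the actin control was 2.42 in knockout cells and 2.54 in wild-type cells. The part of cell mixture in the results below was not tested.

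After LPS, 5 of the 10 genes were lower in the knockout by 10% or more (Ier3, Zfp36l1, Cish, Elavl1 and Tnfaip3), 1 was higher by 10% or more (Tnip1), and 4 lay within 0.5% of the wild-type signal (Socs1, Socs2, Zfp36 and Hnrnpd). Of the 5119 eligible genes, which had 1 or both signals above the floor, 29.4% were lower by 10% or more, 34.7% were higher by 10% or more and 2.13% lay within 0.5%. In bulk RNA, fewer cells that express a gene and less of its RNA per cell cannot be told apart. The limits of 10% and 0.5% were chosen after the values were seen. The median log2 ratio of the 10 genes was −0.13, against 0.02 for all eligible genes. A ratio below 0 was seen in 47.8% of all eligible genes. Only Ier3 was 1.5-fold or more apart, 1 of 10, against 12.1% of all eligible genes, a share near that background. None of the 10 was 2-fold apart, against 2.31% of all eligible genes. Among all eligible genes 326 were 1.5-fold or more higher and 293 lower, and when the arrays were given equal medians, which moved the median log2 ratio of all genes by −0.11, the split was 214 higher and 456 lower.

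**Figure D1:**
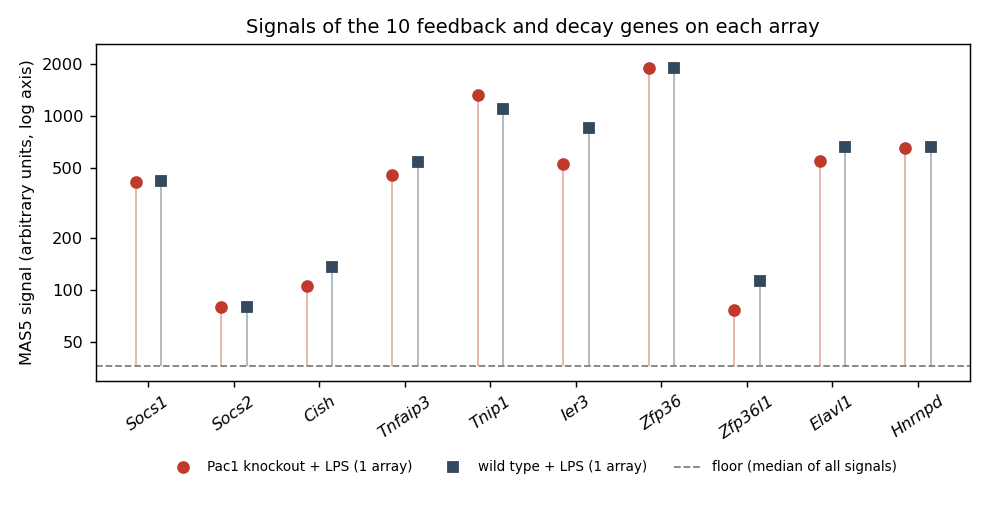
MAS5 signals (arbitrary units, log axis) of the 10 genes on the Pac1 knockout array (red circles) and the wild-type array (dark squares), both after LPS, with the floor of 36.4 as a dashed line. Stems rise from the floor, and all 20 signals lie above it. Only pairs of the same gene can be compared, since signals of different probe sets are not on a common scale. Ier3 shows the widest gap, and the Socs1, Socs2, Zfp36 and Hnrnpd pairs are level.

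Among the inhibitors of cytokine receptor signalling, Socs1, which binds JAK kinases and limits interferon and interleukin-6 signalling, had a signal of 420.1 in knockout cells and 420.5 in wild-type cells. The arrays were level for this gene, with the knockout at 99.9% of wild type. Socs2, best known for limiting growth hormone signalling, had 80.0 in knockout cells and 80.1 in wild-type cells, also level. Cish, a STAT5-induced inhibitor whose start site with its STAT motif matches is printed above, had 105.2 in knockout cells and 135.7 in wild-type cells. Its log2 ratio was −0.37, or 1.29-fold lower, and 13.0% of eligible genes had a lower ratio. Both Socs2 and Cish were dim, in the second of 4 bins of equal size that split the eligible genes by mean signal, dim to bright, and in that bin 17.2% of genes were 1.5-fold or more apart. When the floor was raised to the 75th percentile the Cish ratio shrank to −0.06, as its knockout signal then lay below it.

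Of 16 other JAK-STAT feedback genes listed, 12 were on the array and 11 were eligible. There were 7 with log2 ratios above 0 and 4 below (against 47.8% of all eligible genes). Their median was 0.07, which was −0.05 with the arrays at equal medians. Usp18, which blocks type I interferon receptor signalling, had 4497.9 in knockout cells and 4648.0 in wild-type cells. Socs3, the inhibitor of interleukin-6 signalling through gp130, had 2375.2 in knockout cells and 2346.6 in wild-type cells. Ptpn1, a tyrosine phosphatase that acts on JAK2 and TYK2, had 1451.3 in knockout cells and 1185.8 in wild-type cells (log2 ratio 0.29). The gene 1.5-fold apart, 1 of 11 against 12.1% of all eligible genes, was the dim Socs5, with 107.0 in knockout cells and 63.8 in wild-type cells (0.75).

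The receptors, JAK kinases and STAT factors on which these inhibitors act had a median log2 ratio of 0.00 over 19 eligible genes of 21 on the array, with 10 above and 9 below 0, and a median of −0.10 with equal medians. Il10rb, a chain of the interleukin-10 receptor, had 3505.1 in knockout cells and 3741.4 in wild-type cells. Stat3 had 1337.9 in knockout cells and 1346.4 in wild-type cells, and −0.17 as the log2 ratio of its other probe set. Stat5a, a factor that induces Cish, had 918.2 in knockout cells and 866.2 in wild-type cells, and its other probe set had a log2 ratio of −0.10, so the probe sets differ in sign. The probe set used for Stat5a is marked for possible cross-hybridisation. Of the 19 genes 2 were 1.5-fold or more apart (10.5%, against 12.1% of all eligible genes, a share near that background), and both were dim. The kinase gene Tyk2 had 44.7 in knockout cells and 100.8 in wild-type cells (−1.17), and Stat5b, the close relative of Stat5a, had 80.3 in knockout cells and 45.9 in wild-type cells (0.81).

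Among the genes of the NF-kB arm, Ier3, an early response gene whose protein modulates survival and NF-kB signalling, had a signal of 533.4 in knockout cells and 859.7 in wild-type cells. Its log2 ratio was −0.69, or 1.61-fold lower, the widest of the 10 genes. Of the 5119 eligible genes 198 had a lower ratio (3.87%). Ier3 was in the brightest of the 4 bins, and 20 of the 1280 genes there had a lower ratio (1.56%), while 2.97% of that bin were 1.5-fold or more apart in either direction. Under the 9 other processing settings its ratio lay between −0.81 and −0.65.

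Tnfaip3, the gene of the ubiquitin-editing enzyme A20, had 458.3 in knockout cells and 543.0 in wild-type cells, a log2 ratio of −0.24. Tnip1, the gene of the A20-binding protein ABIN-1, had 1316.9 in knockout cells and 1101.9 in wild-type cells, a log2 ratio of 0.26. The partners thus differed in sign, with their log2 ratios 0.50 apart, and each kept its sign under the other settings. Of eligible genes, 44.0% had a larger absolute ratio than Tnfaip3 and 42.2% a larger one than Tnip1. All 3 genes of this arm have a kappaB match in the sequences printed above, and their ratios ran from −0.69 to 0.26.

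The wider list of NF-kB and Toll-like receptor feedback genes had 14 eligible members of 15 on the array. Of the 14, 10 were below 0 (against 47.8% of all eligible genes) and 4 above, with a median log2 ratio of −0.19. The list had 2 to 5 ratios above 0 under the other settings, and its median stayed below 0. Atf3, a transcriptional repressor of Toll-like receptor targets, had 6038.9 in knockout cells and 4994.7 in wild-type cells (0.27, from a probe set marked for possible cross-hybridisation). Nfkbia, the gene of the inhibitor IkB-alpha, had 3376.4 in knockout cells and 3246.9 in wild-type cells, while its other probe set had a log2 ratio of −0.26. Tax1bp1, an adaptor of A20, had 3178.7 in knockout cells and 3748.3 in wild-type cells (−0.24), and its other probe sets had ratios of 0.01 and −0.28. The probe set used for Tax1bp1 is also marked for possible cross-hybridisation. The gene 1.5-fold apart, 1 of 14 against 12.1%, was Rnf11, another partner of A20, with 54.9 in knockout cells against 13.3, under the floor, in wild-type cells, which makes it at least 1.51-fold higher; with quantile normalization, loess or equal medians 0 of the 14 were 1.5-fold apart.

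**Figure D2:**
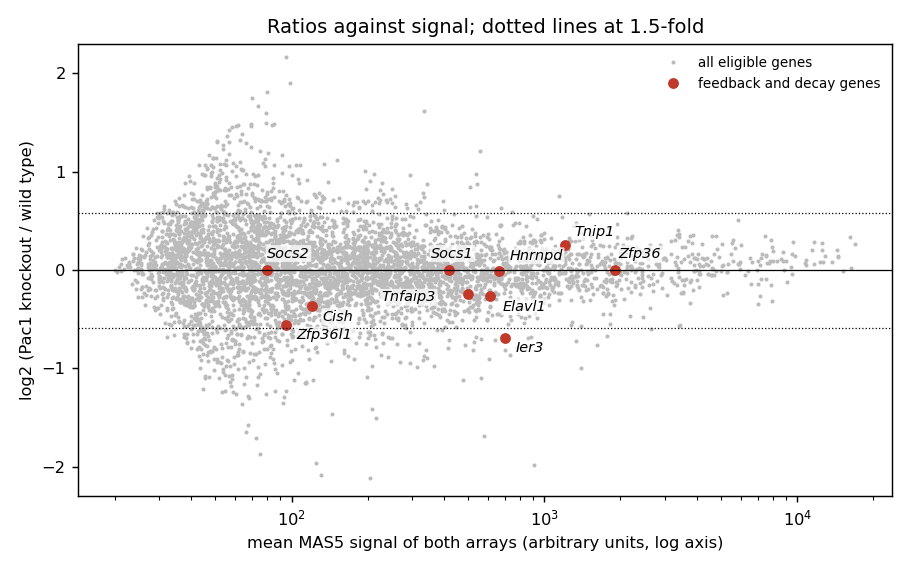
Log2 ratio of Pac1 knockout over wild type (vertical axis) against the mean MAS5 signal of both arrays (arbitrary units, log axis) for the 5119 eligible genes (grey) and the 10 feedback and decay genes (red, named), with signals below the floor raised to it. Dotted lines mark 1.5-fold. The cloud narrows from dim to bright genes, and Ier3 lies below the lower dotted line at −0.69, in a range of signal where few genes lie as low.

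Among the decay factors, Zfp36, the gene of tristetraprolin, had a signal of 1893.4 in knockout cells and 1897.5 in wild-type cells, 99.8% of wild type. Its only probe set has a suffix that marks possible cross-hybridisation, so without such probe sets Zfp36 had no value. Zfp36l1, its relative with the same type of tandem zinc fingers, had 76.8 in knockout cells and 112.9 in wild-type cells, a log2 ratio of −0.56 or 1.47-fold lower. It was dim, and 117 of the 1280 genes in its bin of signal had a lower ratio (9.14%). The log2 ratios of Zfp36 and Zfp36l1 were 0.55 apart. Scaling the arrays to the same median took Zfp36l1 past 1.5-fold, at −0.67.

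Elavl1, the gene of the stabilising protein HuR, had 550.8 in knockout cells and 662.8 in wild-type cells, a log2 ratio of −0.27. Hnrnpd, the gene of AUF1, had 659.6 in knockout cells and 662.3 in wild-type cells, 99.6% of wild type. The signals of the decay factors were thus level for Zfp36 and Hnrnpd and lower in the knockout for Zfp36l1 and Elavl1. Of eligible genes, 40.7% had a larger absolute ratio than Elavl1.

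Other genes of AU-rich element binding and general mRNA decay had 34 eligible members of 44 on the array. Of the 34, 24 were below 0 (against 47.8% of all eligible genes) and 10 at or above 0. The median log2 ratio of this list was −0.08 and stayed below 0 under the other settings. The brightest were Ybx1, the gene of an mRNA-packaging protein (10102 in knockout cells and 9046 in wild-type cells), the poly(A)-binding protein gene Pabpc1 (3493.8 in knockout cells and 2856.4 in wild-type cells, 0.29) and Hnrnpdl, a relative of Hnrnpd (1688.1 in knockout cells and 1803.9 in wild-type cells, with a ratio of 0.26 for its other probe set). The probe set used for Hnrnpdl is marked for possible cross-hybridisation. Of the 34 genes, 4 were 1.5-fold or more lower and 2 higher, together 17.6% against 12.1% of all eligible genes. With loess 6 were lower and 2 higher, with equal medians 6 were lower and 1 higher, without probe sets that may cross-hybridise 3 were lower and 1 higher of 31 eligible genes, and with the floor raised to the 75th percentile 2 were lower and 0 higher of 17. The tilt toward lower was not kept with lower floors. With the floor at the 25th percentile 5 were lower and 5 higher of 41, and with no floor 6 were lower and 7 higher of 44. The lower ones were Rc3h2, the gene of the stem-loop-binding decay protein Roquin-2 (71.3 in knockout cells and 157.4 in wild-type cells, −1.14, from a probe set marked for cross-hybridisation), Lsm7 of the decapping-associated Lsm ring (178.2 in knockout cells and 278.3 in wild-type cells, −0.64), Btg2, an activator of deadenylation (312.4 in knockout cells and 477.5 in wild-type cells, −0.61), and the dim AU-binding enzyme gene Auh (−0.60), whose other probe set had no signal above the floor. Btg2 and Auh were singled out with their values known. The higher ones were Hnrnpc (115.4 in knockout cells and 73.4 in wild-type cells, 0.65) and Lsm2, at least 1.81-fold higher (also from a probe set marked for cross-hybridisation), with 66.0 in knockout cells against 35.4, just under the floor, in wild-type cells.

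Tristetraprolin is held inactive when the kinase MK2, acting below p38, phosphorylates it. Of 9 genes on the array for kinases and phosphatases that act on it or on p38 signalling above it, 7 were eligible. Of the 7, 5 were above and 2 below 0 (against 47.8% of all eligible genes below). Their median log2 ratio was 0.12 (0.00 with the arrays at equal medians). The count of genes 1.5-fold apart was 0 of 7, against 12.1% of all eligible genes. With equal medians it was 1 of 7, Mapkapk5, which was singled out with its value known, against 13.1% of all eligible genes. Mapkapk2, the gene of MK2, had 3371.5 in knockout cells and 3757.7 in wild-type cells (−0.16), while its dim other probe set had a ratio of 0.55. Dusp1, the phosphatase that inactivates p38 and is itself encoded by an AU-rich mRNA, had 2237.8 in knockout cells and 1621.3 in wild-type cells (0.46). Ppp2cb, a catalytic subunit gene of the phosphatase PP2A, had 473.6 in knockout cells and 442.9 in wild-type cells.

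Transcripts with AU-rich elements, the class on which the decay factors act, had 16 eligible genes of 21 on the array. Of the 16, 13 had ratios below 0 (against 47.8% of all eligible genes), a count that the other scalings kept. With equal medians the median of all eligible genes was itself below 0, at −0.10. The median log2 ratio of the 16 genes was −0.33, against 0.02 for all eligible genes. Of the 16 genes 4 were 1.5-fold or more lower and 0 higher, against 5.72% of all eligible genes lower and 6.37% higher. These cytokine and early response genes include Il6, whose lower signal was known when the list was made, so the count is a description. Il6 had 366.4 in knockout cells and 1447.6 in wild-type cells (−1.98). Ptgs2, the inducible cyclooxygenase gene, had 505.6 in knockout cells and 886.2 in wild-type cells (−0.81), and Csf3, the granulocyte growth factor gene, had 187.0 in knockout cells and 301.3 in wild-type cells (−0.69). The dim Il12b had 44.3 in knockout cells and 74.8 in wild-type cells (−0.76). The 3 brightest by mean signal were closer, with the chemokine gene Ccl3 at 7078.8 in knockout cells and 8792.8 in wild-type cells (−0.31), the chemokine gene Ccl2 at 7270.8 in knockout cells and 7730.4 in wild-type cells (−0.09), and Tnf at 6490.2 in knockout cells and 7816.9 in wild-type cells (−0.27).

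**Figure D3:**
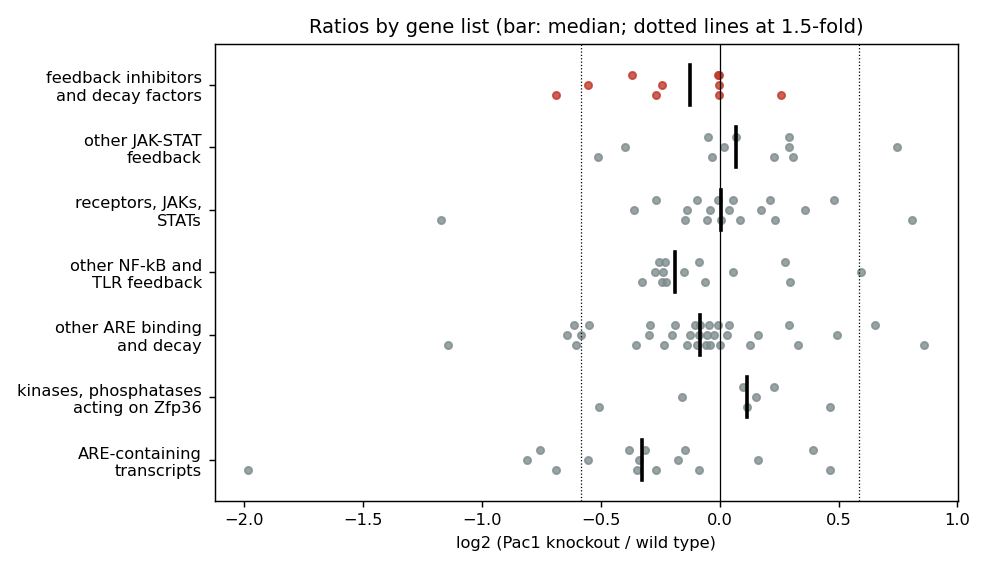
Log2 ratio of Pac1 knockout over wild type (horizontal axis) for each eligible gene, by list, with the 10 feedback and decay genes in red at the top; points are spread vertically for legibility, bars mark medians and dotted lines 1.5-fold. ARE stands for AU-rich element and TLR for Toll-like receptor. The medians run from −0.33 for the ARE-containing transcripts to 0.12 for the kinases and phosphatases labelled as acting on Zfp36, and that of the feedback inhibitors and decay factors is −0.13. That kinase and phosphatase list also holds genes that act on p38 signalling. With equal medians the 0.12 becomes 0.00.

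The 4 level genes stayed near 0 under the other settings, and the sign changed for Socs1 and Hnrnpd. Socs1 ranged from −0.12 to 0.03 and Hnrnpd from −0.12 to 0.03 over the processing settings, and Zfp36 and Socs2 lay between −0.12 and 0.00. The −0.12 in each case came from scaling to the same median, which moved all genes together. The 5 lower genes stayed below 0 and Tnip1 above 0 under every setting that gave them a value.

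**Figure D4:**
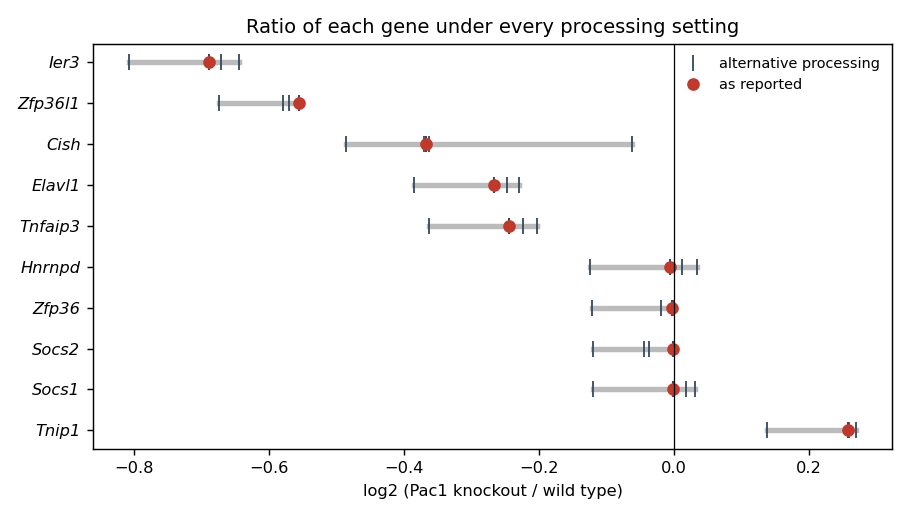
Log2 ratio of Pac1 knockout over wild type (horizontal axis) of each gene as reported (red circles) and under the alternative processing settings (vertical ticks), with grey bars over the whole range, and Ier3 at the top. Ier3, Zfp36l1, Cish, Elavl1 and Tnfaip3 stay left of 0, Tnip1 stays right of it, and the 4 level genes lie near 0, lowest in the setting with equal medians.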

How the data were processed

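Per the submitters' processing notes, the authors computed the deposited intensities, 1 linear value per probe set and array, with MAS5 (version and settings not given in the sources used here). Of 12654 probe sets, 10298 had 1 gene symbol in the platform annotation, 363 several and 1993 none. Members and lists were chosen with earlier results of these data known. Arrays were scaled to the same 2% trimmed mean (factors of 1 after rounding), signals raised to a floor of 36.4, the median of all signals, and log2 ratios of knockout over wild type taken. For genes with several probe sets the one of highest mean signal was used. Signals of different probe sets are not on a common scale. They were ranked to choose a probe set, to bin genes and to name bright or dim genes. They were also summed over the marker lists, where the brightest probe sets weigh most. Amplification from poly(T), per the labels, weights 3′ ends. Probe sets designed against the wrong strand, known for this array generation, were not identified. Calls are sizes (1.5-fold and 2-fold), with no test. The named genes were all members, Dusp2, and of each wider list the 3 brightest and up to 4 of largest ratio past 1.5-fold; Btg2, Auh, Mapkapk5 and the cell markers were named outside this rule. The ratio computation was tested on simulated data. Python 3.11.15, numpy 2.4.6, pandas 2.3.3 and statsmodels 0.14.6 (loess) were used. Alternatives changed the scaling, the floor, the probe set rule and cross-hybridising probe sets.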

Additional observations from a re-analysis of the deposited data

How the results depend on the processing

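Across 9 alternatives, 111 recomputed values stayed within set limits and 3 moved past them. For log2 ratios the limit was 0.21, the median absolute log2 ratio of all eligible genes. For the count of members 1.5-fold apart it was a 1.5-fold change in the count. Those that moved were this count with equal medians, and the Dusp2 and Cish ratios with the floor raised to the 75th percentile. With arrays scaled to the same median, 2 members were 1.5-fold apart (Ier3 and Zfp36l1), against 1 as reported, beside 13.1% of all eligible genes under that scaling, which by construction moved every gene. The members' median log2 ratio was −0.13 as reported, −0.24 with equal medians, −0.24 without probe sets that may cross-hybridise (Zfp36 then had no value) and −0.03 with the floor raised to the 75th percentile (8 members eligible). Relative to the median of all eligible genes it was −0.14 as reported, −0.15 with equal medians, −0.26 without such probe sets and −0.03 with that floor. With the floor raised to the 75th percentile, the Dusp2 ratio was −1.36 and the Cish ratio −0.06, since their knockout signals were raised to that floor, and Socs2 and Zfp36l1 were not eligible. Ier3 and Dusp2, the genes 1.5-fold apart among those recomputed here, kept their direction. The share of all eligible genes 1.5-fold or more apart was 12.1% as reported, 4.67% with that floor, 26.0% with the floor lowered to the 25th percentile and 32.7% with no floor, as fewer or more dim genes entered. No paired analysis was possible because each genotype has 1 array, and no replicate could be left out.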
